A study of Mus musculus with 1 sample.

Results

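Molecular chaperones and genes of the unfolded protein response were examined in cultured mouse lung cancer cells, a cell line derived from a KR tumor of the B6/J strain and labelled KR Primary. The 51 genes were chosen by name from the heat shock protein families, the folding machinery of the endoplasmic reticulum (ER) and the ER stress pathway, and 49 of them were measured among 18193 genes on the array. Hsp90ab1 and Hsf1 were not analysed here. The sample's labels do not spell out KR or give the number of clones. The cells were grown in RPMI1640 medium with 10% FBS, were collected at 80 to 90% confluency, and the labels name no further agent. RNA of 1 sample was hybridized to 1 Affymetrix array, so there was 1 group, no replicate, no comparison between conditions and no p-value.

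Chaperones bind unfolded or partly folded proteins and let them fold, often through cycles of ATP hydrolysis. In the cytosol, heat shock factors induce many chaperone genes when unfolded proteins accumulate. In the ER, the sensors IRE1, PERK and ATF6 detect unfolded proteins, slow translation and induce folding enzymes and genes of ER-associated degradation, which returns misfolded proteins to the cytosol. Tumor cells that grow and secrete rapidly are known to depend on both systems.

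The array reported 126 one-gene probe sets for the members, each a group of short probes annotated to 1 gene, in arbitrary fluorescence units. A probe set counted as above background when it exceeded 16.8, the 95th percentile of 126 probe sets for smell, taste and hair follicle genes on the same array. The highest of these background signals, 60.6, served as an upper background limit. It rests on 1 probe set, and the next highest background signal was 42.2. Probe sets differ in brightness for the same amount of RNA, so signals of different genes cannot be ranked as RNA amounts. As the RNA came from many cells, fewer expressing cells and less RNA per cell cannot be told apart. The fold and the SD between the probe sets of 1 gene describe how far its probe sets differ. They are not errors of the gene's level, for which 1 array gives no estimate. RNA degradation controls had 3′ to 5′ ratios of 1.10 for beta-actin and 0.795 for Gapdh. All 4 epithelial markers (Krt8, Krt18, Epcam and Cdh1) exceeded the upper limit, whereas none of 3 lung epithelial, 3 leukocyte, 3 fibroblast and 3 endothelial markers did, and Nkx2-1, a lung epithelial regulator, read 7.66. Sftpc, encoding surfactant protein C, read 21.1 and 5.49, between the line and the upper limit on the higher probe set, and Scgb1a1, a club cell gene, read 1.38. Of the lung epithelial markers, 1 of 3 was thus above the line. So were 2 of 3 endothelial, 1 of 3 fibroblast and 0 of 3 leukocyte markers, with Kdr at 30.3 and Col1a2 at 19.3.

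Most members gave clear signal. Of the 49 measured, 46 were above the background line (93.9%), beside 63.3% of all genes. Above the upper limit were 45 members (91.8%), beside 47.5% of all genes. The 4 others were Hsf2, at 17.4 just above the line, and Hspb8, Hspa12a and Ern2, which were not above it. The median of the members' highest probe sets was 699.5, against 48.3 over all genes. Highest signals over 1000 were reached by 23 members (46.9%), beside 7.99% of all genes.

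Genes with more probe sets have more chances to pass. Among genes with 1 probe set, 13 of 14 members exceeded the upper limit, beside 32.6% of 9183 genes. Among genes with 5 or more, all 6 members did, beside 82.4% of 856 genes. The members' share was thus above that of all genes in each class of probe set number. The smallest gap was at 4 probe sets, where 4 of 5 members and 71.8% of genes passed. In that class and in the class of 5 or more probe sets, the members' counts lay near the share of all genes.

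**Figure D1:**
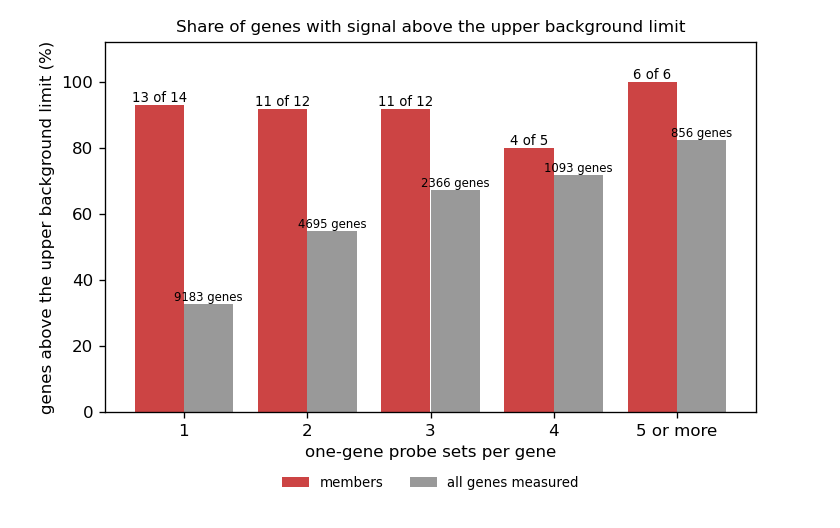
Share of genes whose highest probe set exceeded the upper background limit (vertical axis, %), by the number of one-gene probe sets per gene (horizontal axis), for the members (red, counts above the bars) and all genes measured (grey). Among genes with 1 probe set 13 of 14 members passed, beside 32.6% of all genes, and the grey bars rise with the number of probe sets while the red bars stay at 80.0% or more.

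In the cytosol, transcripts of the constitutive and the stress-inducible Hsp70 genes were both present. Hspa8, which encodes the constitutive Hsc70, gave 6828, 6251, 4292 and 213 on its 4 probe sets. The brighter pair belongs to probe sets with names ending in _x_at, which can take signal from related sequences, but the next one, at 4292, does not. All 4 were above the upper limit.

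Hspa1b, a stress-inducible Hsp70 gene, gave 1414, 687 and 501 on its 3 probe sets, and its neighbour Hspa1a gave 186 on its only one. All of these were above the upper limit. The genes are known as near-identical copies, and their promoter windows of 300 bases in RefSeq matched at 296 positions. Whether the probes tell the transcripts apart was not tested, so the assignment of signal to either gene is uncertain. Hspa2, an Hsp70 gene best known from male germ cells, gave 171 on its only probe set.

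The Hsp110 proteins act as nucleotide exchange factors for Hsp70. Hspa4, 1 of the Hsp110 genes, gave 2196, 325, 168 and 17.3. Its lowest probe set lay barely above the line. Hsph1, another Hsp110 gene, gave 658 and 571, an SD of 0.14 on the log2 scale. Hspa14, an Hsp70 relative bound to ribosomes, gave 786, 90.7 and 21.8. Hspa12a, a distant relative of Hsp70, gave 8.05, 3.19, 1.76 and 1.71. It was the only member of the cytosolic Hsp70 and Hsp110 group not above background, and 7 of 8 genes exceeded the upper limit.

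Hsp90aa1, the inducible cytosolic Hsp90 gene, gave 5951, 4445 and 4308 on 3 probe sets and 13.6 and 12.8 on the others. Its probe sets thus fell into a bright and a background group, with an SD of 4.67. Stip1, encoding the adaptor HOP that links Hsp70 to Hsp90, gave 1143. The J proteins, which stimulate the ATPase of Hsp70, were represented by Dnaja1 at 2465, 679 and 456 and Dnajb1 at 685 and 609.9. Bag3, a co-chaperone that couples Hsp70 to small heat shock proteins and autophagy, gave 210.5. All 5 measured genes of this group exceeded the upper limit.

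The small heat shock proteins hold unfolded proteins without using ATP, and their 3 genes did not share a pattern. Hspb1 (Hsp27) gave 341 and 262. Cryab, encoding the alphaB-crystallin of lens and muscle, gave 1166 and 363 and, on its remaining probe set, 8.10. Hspb8, a partner of BAG3, gave 15.2, 13.3 and 2.51. All 3 probe sets stayed below the line, the highest by 0.15 on the log2 scale.

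The chaperonin CCT is a ring of different subunits that folds actin and tubulin. All 4 subunit genes among the members exceeded the upper limit. Cct2 gave 4690.0, 3713 and 3198, an SD of 0.28. Tcp1 gave 3538 and Cct5 gave 3396, each on 1 probe set. Cct3 gave 3526, 2997, 2133 and 1029, and 79.0, 21.2 and 3.62 on the remaining 3. Of its 7 probe sets, 5 exceeded the upper limit and 1 was below the line.

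The mitochondrial chaperones were also above the upper limit in all 4 genes. Hspd1, the chaperonin Hsp60, gave 3584 on 1 probe set, and Hspe1, its lid Hsp10, gave 2312 and 1131. Hspa9, the mitochondrial Hsp70 (mortalin), gave 2339.8, 1302, 162, 105 and 11.6, so that 4 of 5 probe sets exceeded the upper limit. Trap1, the mitochondrial Hsp90, gave 699.5 and 337.

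The heat shock factor genes were represented by Hsf2, a transcription factor of the heat shock response, which gave 17.4 and 12.4. Only the former passed the line, by 0.05 on the log2 scale.

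**Figure D2:**
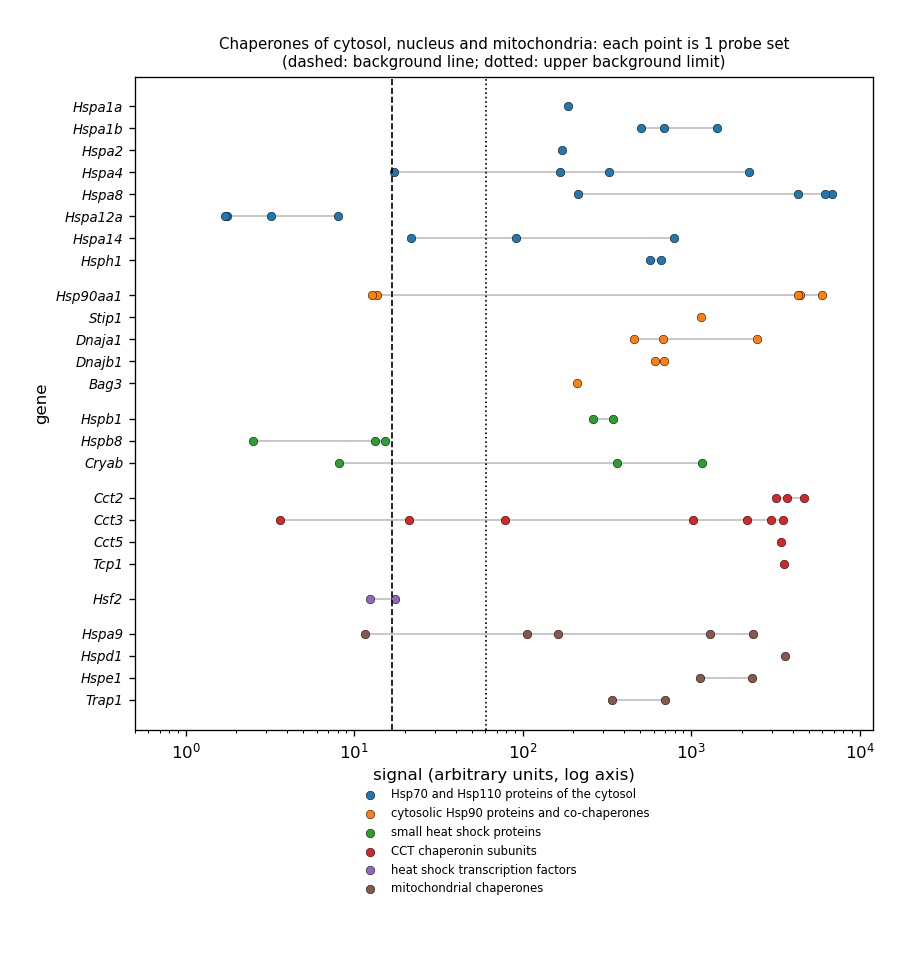
Signal of each probe set (points, arbitrary units, log axis) for the members of the cytosol, nucleus and mitochondria, one gene per row and coloured by role, with a grey bar from the lowest to the highest probe set. The dashed line is the background line at 16.8 and the dotted line the upper limit at 60.6. Hspa12a and Hspb8 lie wholly to the left of the dashed line, and Hsp90aa1, Cryab, Cct3, Hsf2 and Hspa9 have points on both sides of it.

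In the ER, all 7 genes of the Hsp70, Hsp90 and J protein group exceeded the upper limit. Hspa5, encoding BiP, the main ER Hsp70 and the regulator of the stress sensors, gave 3773, 2255 and 376. Hsp90b1, the ER Hsp90 (GRP94), gave 2909.6 and 1975. Both genes were above the upper limit on all of their probe sets.

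The partners of BiP also exceeded the upper limit on at least 1 probe set each. Hyou1, the ER Hsp110, gave 199, 62.3 and 26.2, and so exceeded the upper limit on 2 of 3, on the second of them narrowly. Hspa13, a microsomal Hsp70, gave 387, 128, 119 and 33.4. The ER J proteins were Dnajb9 at 352, Dnajb11 at 425, and Dnajc3 (p58IPK), which also inhibits the kinase PERK, at 369, 348, 126, 88.9 and 27.1. For Hspa13 and Dnajc3 all but the lowest probe set passed the upper limit.

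The lectin chaperones calnexin and calreticulin retain glycoproteins in the ER until they are folded. Calr gave 2295, 1284 and 1179, and Canx gave 2871, 1264 and 159. Disulfide isomerases form and rearrange disulfide bonds. P4hb, the founding isomerase PDI, gave 2938 on 1 probe set. Pdia3, which works with the lectin chaperones, gave 3849 and 31.1, Pdia6 gave 1280.3 and 17.2, and Pdia4 gave 504 and 16.8. In each of these 3 genes 1 probe set was bright and the other lay within the range of background genes. All 6 genes of the group exceeded the upper limit on their highest probe set.

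The sensors of the unfolded protein response divided by gene and by probe set. Xbp1, the transcription factor whose mRNA is spliced by IRE1, gave 1400.2, 1013, 386 and 79.0, all above the upper limit. These signals do not tell spliced from unspliced Xbp1 mRNA. Atf6 gave 222, 142 and 43.2, the lowest of them between the line and the upper limit. Ern1, encoding IRE1alpha, gave 165, 43.8, 17.1, 6.52 and 2.24, so that 1 of 5 probe sets exceeded the upper limit. Eif2ak3, encoding PERK, gave 232, 1.19 and 0.900. Ern1 and Eif2ak3 thus passed on a single probe set each. Ern2, encoding IRE1beta of mucus-secreting epithelium, read 1.44 on a single probe set, below the line.

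Genes of ER-associated degradation and other ER stress-induced genes exceeded the upper limit in 6 of 6 cases. Herpud1, which helps to assemble the degradation complex, gave 275 and 185. Edem1, which directs misfolded glycoproteins to degradation, gave 565 and 442, and Sel1l, an adaptor of the ubiquitin ligase complex, gave 374, 218, 96.9, 91.2 and 43.0. Sdf2l1, an ER stress-induced partner of J proteins, gave 597. Creld2, an ER stress-induced protein, gave 312, and Manf, a secreted ER stress-induced factor, gave 1136. In this group 11 of 12 probe sets were above the upper limit, beside 41.1% of all one-gene probe sets. Among the sensors and Xbp1, 8 of 16 were, which lies near that share, and 4 of the 8 were those of Xbp1.

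**Figure D3:**
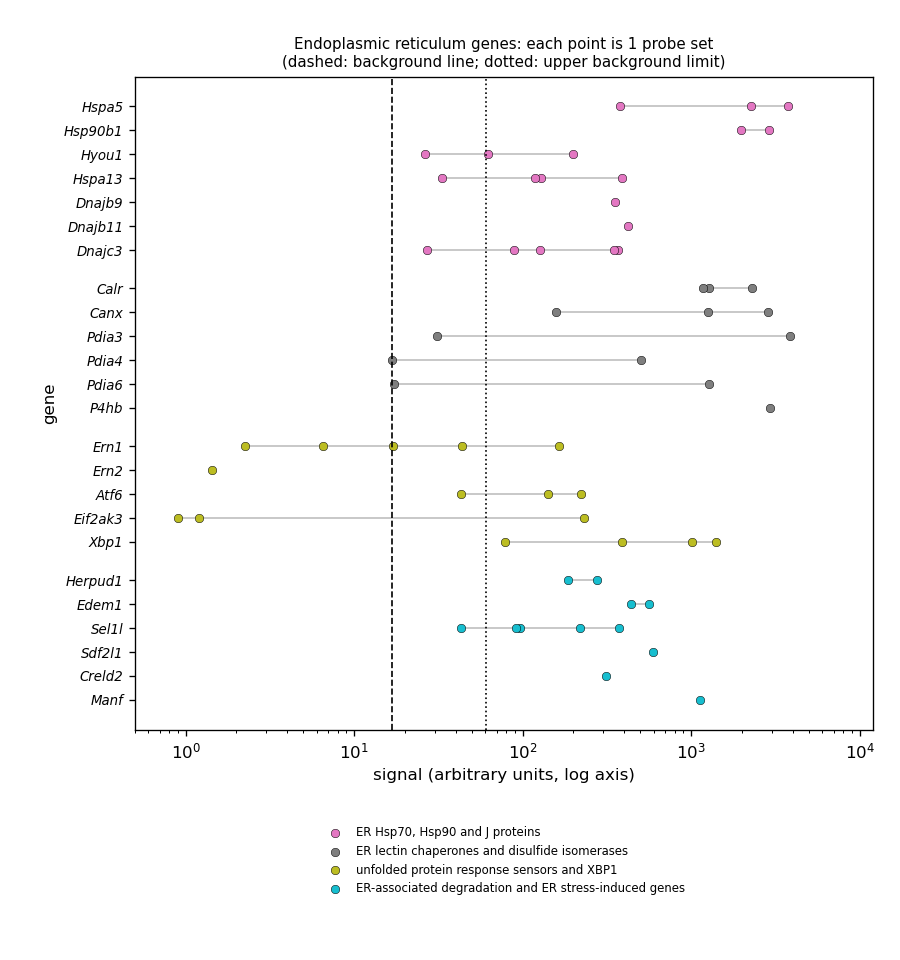
Signal of each probe set (points, arbitrary units, log axis) for the ER members, one gene per row and coloured by role, with a grey bar from the lowest to the highest probe set. The dashed line is the background line at 16.8 and the dotted line the upper limit at 60.6. Ern2 lies at 1.44, Pdia3, Pdia4 and Pdia6 each have 1 bright and 1 dim probe set, and all probe sets of Herpud1 and Edem1 lie to the right of the dotted line.

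The agreement between probe sets sets how firmly a gene can be called. Of the 126 member probe sets, 107 (84.9%) exceeded the line and 94 (74.6%) the upper limit, beside 60.9% and 41.1% of all one-gene probe sets. All probe sets were above the upper limit in 29 members, 16 of which had 2 or more, and 27.3% of all genes met the same condition. The SD of log2 signals within a gene had a median of 1.45 over the 35 members with 2 or more probe sets, and 1.45 over the 9010 such genes of the array. It ranged in the members from 0.12 for Dnajb1 to 4.92 for Pdia3. In 8 of the 35 members (22.9%) the probe sets disagreed on the line, beside 32.9% of all such genes.

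Promoters of the members were searched for the motifs through which both stress responses act. The motifs were chosen by their known roles after other results of these data had been seen, and the counts describe the reference sequence with no test. These roles are known from genes like the members. A higher share in members than in all genes is therefore not independent of that choice. The windows, from RefSeq on build GRCm38.p6, ran from 250 bases before to 50 bases after a gene's start, and 40 of the 49 measured members and 27025 genes in all had at least 1. Both strands were searched. The ER stress response element (ERSE), which is CCAAT and CCACG with any 9 bases between them, is bound by ATF6 with the CCAAT-binding factor NF-Y. It was found in 7 members (17.5%) and in 37 of all genes (0.137%). Each of the 7 is given 5′ to 3′ in the direction of its gene, with the fixed letters of the motif in capitals and 20 flanking bases, and where the motif lies on the opposite strand its reverse complement appears.
Hspa5 (chr2:34772005-34772063, plus strand): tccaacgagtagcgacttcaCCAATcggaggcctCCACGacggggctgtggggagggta
Hsp90b1 (chr10:86705513-86705676, minus strand): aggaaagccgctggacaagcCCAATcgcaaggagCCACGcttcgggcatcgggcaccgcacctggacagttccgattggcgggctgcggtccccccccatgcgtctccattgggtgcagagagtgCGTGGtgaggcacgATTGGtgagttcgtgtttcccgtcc
Calr (chr8:84847055-84847113, minus strand): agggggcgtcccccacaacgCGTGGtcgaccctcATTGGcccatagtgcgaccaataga
Canx (chr11:50325780-50325838, minus strand): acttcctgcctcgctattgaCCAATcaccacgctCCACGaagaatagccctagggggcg
Pdia6 (chr12:17266471-17266529, plus strand): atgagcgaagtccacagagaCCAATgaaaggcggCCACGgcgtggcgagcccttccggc
Dnajc3 (chr14:118937807-118937865, plus strand): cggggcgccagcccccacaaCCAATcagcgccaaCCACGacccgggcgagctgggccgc
Creld2 (chr15:88819500-88819558, plus strand): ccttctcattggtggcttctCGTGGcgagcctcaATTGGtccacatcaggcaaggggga

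All 7 genes act in the ER, and Hsp90b1 held 2 matches. The motif's first base lay 65 bases upstream of the start in Hspa5 and 212 and 107 bases upstream in Hsp90b1. All 7 exceeded the upper limit on their highest probe set, from 312 for Creld2 to 3773 for Hspa5, as did 30 of the 33 members whose windows held no ERSE. The shorter form ERSE-II, ATTGG and CCACG with any 1 base between them, was found in Herpud1 and Dnajb11, and in 12 of all genes (0.0444%). In Dnajb11 it lay after the start. It is shown for Herpud1, whose gene product acts in ER-associated degradation, with the fixed letters in capitals.
Herpud1 (chr8:94386357-94386407, plus strand): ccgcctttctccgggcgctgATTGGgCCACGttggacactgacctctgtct

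The 2 forms together were found in 9 of 19 ER members with a window and in 0 of 21 other members. Over all genes the shares were 0.137% for ERSE and 0.0444% for ERSE-II, so 0 of 21 lies near the share of all genes. Across the array, an ERSE was not more frequent among genes with signal. Of 20 measured genes with an ERSE, 9 exceeded the upper limit, and 7 of these were the members above. Of the 13 that were not members, 2 did. An ERSE was found in 0.126% of the 7128 genes above the upper limit and in 0.15% of the 7324 genes at or below it. Of 9 measured genes with an ERSE-II, 8 exceeded the upper limit, among them 6 of the 7 that were not members. The 8-base element TGACGTGG, known as UPRE, was found in no member and in 0.714% of all genes. CCAAT alone, which every ERSE contains, was found in 29 of 40 members (72.5%) and in 41.1% of all genes. TGATGCAA, known as CARE and bound by ATF4, was found in Herpud1 and in 1.03% of all genes.

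Heat shock factors bind inverted repeats of GAA. The 3-unit form, GAA, TTC and GAA with any 2 bases between neighbouring units, was found in Hspd1, Hspe1 and Hsph1 (7.5% of members) and in 0.662% of all genes. Hspd1 and Hspe1 lie head to head on chromosome 1 and the match in both windows is the same stretch of the genome, so they count as 1 site. It is shown once, in the direction of Hspe1, with the fixed letters of the overlapping matches in capitals. Hspd1 had windows at more than 1 start, and only 1 of them held the match. In Hsph1 the match lay after the start.
Hspe1 (chr1:55088053-55088082, plus strand): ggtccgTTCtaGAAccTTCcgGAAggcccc

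The 2-unit form GAANNTTC, which the 3-unit form contains, was found in 10 members (25.0%) and in 9.04% of all genes. All 10 belonged to the 21 members with a window outside the ER group, and none to the 19 ER members. Over all genes the share was 9.04%, so 0 of 19 lies near the share of all genes. The 10 were Bag3, Cct2, Dnaja1, Hspa1a, Hspa1b, Hspb1, Hspb8, Hspd1, Hspe1 and Hsph1, and in 7 of them the match lay upstream of the start. Hspd1 and Hspe1 again share the same stretch of the genome, and Hspa1a and Hspa1b are near-identical copies. The 10 genes are thus not 10 independent sites. Hspb8 held 1 after its start and was not above the line as set here, although it passed by 0.10 on the log2 scale with the line at the 90th percentile and by 0.0096 without keratin-associated genes in the background. The other 2-unit form, TTCNNGAA, was found in 5 members (12.5%) and in 9.6% of all genes. These were Cct5, Hspd1, Hspe1, Hsph1 and the ER sensor gene Eif2ak3. Matches in stress-inducible members are given with GAA and TTC in capitals. Dnaja1 and Hspd1 had windows at more than 1 start, and only 1 window of each held the GAANNTTC match. Hspb1 held 2 matches, and the printed bases of Hspa1a and Hspa1b were identical.
Hspa1a (chr17:34972242-34972271, minus strand): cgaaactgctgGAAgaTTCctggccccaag
Hspa1b (chr17:34959324-34959353, minus strand): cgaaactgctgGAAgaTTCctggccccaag
Hspb1 (chr5:135887791-135887840, plus strand): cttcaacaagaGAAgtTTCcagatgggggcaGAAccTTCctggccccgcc
Dnaja1 (chr4:40722333-40722362, plus strand): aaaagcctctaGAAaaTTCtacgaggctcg

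These matches describe the reference sequence of each window. They do not show that a factor was bound in these cells, and windows without a match say nothing about the factors.

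**Figure D4:**
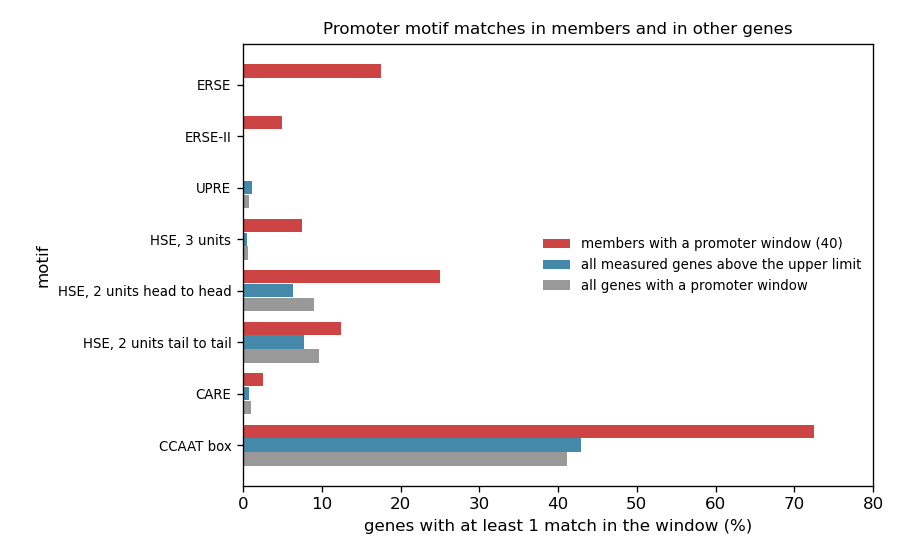
Share of genes with at least 1 match to each motif in the promoter window (horizontal axis, %), for the 40 members with a window (red), all measured genes above the upper background limit (blue) and all genes with a window (grey). ERSE was found in 17.5% of members and 0.137% of all genes, and the GAANNTTC form of HSE in 25.0% and 9.04%. The motifs were chosen by roles known from genes like the members, so these contrasts are not independent of that choice.

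Other genes of the same pathways were set beside the members. Of 81 measured, 70 exceeded the line and 62 the upper limit, beside 63.3% and 47.5% of all genes. Their median highest signal was 360.1. The Hsp90 co-chaperones passed the upper limit in 5 of 5 genes, from Cdc37, which brings kinases to Hsp90, at 1752 to Unc45a, a myosin chaperone, at 105. The mitochondrial folding and protease genes passed in 6 of 6, from Grpel1, an exchange factor of mortalin, at 855 to the protease subunit Clpx at 201. The other CCT and prefoldin subunits passed in 9 of 10, with Cct6a at 3943. The exception was Cct6b, a testis form of the same subunit, at 1.69. For this subunit the somatic gene was thus above the upper limit and the testis gene was not above background.

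Relatives known mainly from other tissues were not uniform, since Hspa2 and Cryab among the members exceeded the upper limit. Among 14 other Hsp70-system genes 11 exceeded the upper limit, with Dnaja2, a J protein, at 3108, while Hspa1l, a testis Hsp70, gave 0.693. Among 16 other ER folding genes 11 did, with the ER prolyl isomerase gene Ppib at 3099.5, while Pdia2, a pancreatic isomerase, gave 4.37. Clgn, the testis relative of calnexin, named after its values were seen, read at most 11.1, whereas Calr3, the testis relative of calreticulin, likewise named afterwards, read 27.1 on the highest of its 3 probe sets, between the line and the upper limit. Among 10 other genes of ER-associated degradation 9 did, with Vcp, the ATPase that extracts proteins from the ER, at 2654, while Derl3 gave 13.7.

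None of 6 other small heat shock protein genes, mostly known from muscle, lens or testis, exceeded the upper limit. They ranged from Hspb9 at 0.212 to Hspb2 at 32.1. The other heat shock factor genes Hsf4 and Hsf5 gave 16.9 and 9.26.

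Among 12 other regulators of the unfolded protein response, 11 exceeded the upper limit. Atf4, the transcription factor translated when PERK is active, gave the highest signal of the list, 1527, and Creb3l1, an ER-bound factor of secretory cells, the lowest, 12.3. The values of 3 further genes of this list are given because of their known roles downstream of PERK, and they were named after their values were seen. Trib3, a pseudokinase gene, gave 116 and 105, Ppp1r15a, encoding the phosphatase subunit GADD34, gave 134, and Ddit3, encoding CHOP, gave 69.0 and 5.73. The Ddit3 signal exceeded the upper limit on 1 of 2 probe sets. With no untreated or stressed sample to compare, these signals do not tell whether any of these genes was induced.

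**Figure D5:**
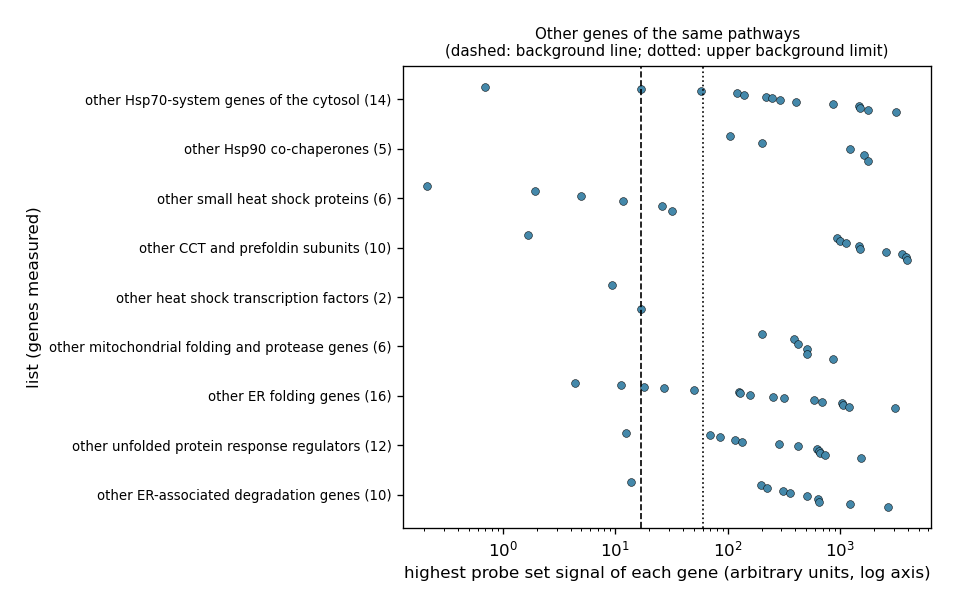
Highest probe set signal of each other pathway gene (points, arbitrary units, log axis), by list, with the number of genes measured in brackets and points spread vertically by rank. The dashed line is the background line at 16.8 and the dotted line the upper limit at 60.6. All points of the Hsp90 co-chaperones and the mitochondrial genes lie above the dotted line, and all 6 other small heat shock protein genes lie below it.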

How the data were processed

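The deposited values are 1 signal intensity per probe set on a linear scale, and the submitters' processing notes name Affymetrix Expression Console. The mean over all probe sets, with 2% trimmed at each end, was 150.0. The summarisation algorithm, its scaling and its background step are not stated in the sources used here. Dim signals were therefore taken as deposited, and bright ones may be compressed. Labelled cRNA was made from 150 ng of total RNA per the labels' protocols. Of 45101 probe sets, 34945 named 1 gene in the platform annotation, and 34741 of these were matched by gene ID to RefSeq symbols (GRCm38.p6). The members, lists, motifs and background rule were chosen with earlier results of these data known. The background set had 44 olfactory, 36 vomeronasal, 43 keratin-associated and 3 bitter taste receptor probe sets. Each gene was represented by its brightest probe set. All members were named, with the highest and lowest gene of each other list. The code for the calls was run on simulated signals with known answers. These drew the dim signals from the background set itself and put the bright genes well above the line. That run checks the code and says nothing about genes near the line. A single array gives no replicate error and no test. Alternatives changed the line, the background set, the probe sets admitted and the way they were combined. Python 3.11.15, numpy 2.4.6, pandas 2.3.3 and matplotlib 3.10.9 were used.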

Additional observations from a re-analysis of the deposited data

Results flagged for a closer look

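Probe sets that name several genes or none were not used for any gene here, and 1489 of 10092 (14.8%) exceeded the upper background limit, which makes them a signal outside the measurements described. None of those with several names included a member.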

How the results depend on the processing

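The count of members above the background line stayed between 38 and 47 under the 9 alternatives, beside 46 as reported (63.3% of all genes). The 38 came with the lowest probe set, where 47.0% of all genes passed. The 47 came with the line at the 90th percentile (66.7% of all genes) and without keratin-associated genes (65.4%). The count above the upper limit was 43 with the median over probe sets, beside 38.8% of all genes, and 29 when the lowest probe set had to pass, beside 27.3%. It was 45 under the other 7, as in the reported setting with 47.5% of all genes. The drop to 29 follows from the stricter rule. Hspb8, below the line as reported, lay above it by 0.10 on the log2 scale with the line at the 90th percentile and by 0.0096 without keratin-associated genes in the background. Hsf2 fell below the line at the 99th percentile, at -1.08, and with the median, at -0.19. Eif2ak3 fell below it with the median, at -3.81. With the lowest probe set, Hsp90aa1 was at -0.39, Cryab at -1.05, Cct3 at -2.21, Hsf2 at -0.44, Hspa9 at -0.54, Pdia4 at -0.003, Ern1 at -2.91 and Eif2ak3 at -4.22. No other member changed sides of the line under these alternatives. Without keratin-associated genes the upper limit fell to 19.2, which 60.8% of all genes exceeded. Allowing 1 mismatch, an alternative chosen after seeing the data, raised the members with an ERSE from 7 to 11 and the share of all genes from 0.137% to 1.72%. No paired analysis was possible because there was 1 sample. Members changed sides of the line most often with the lowest probe set (8), beside 2 with the median and 1 with each change of the line or background set. The calls thus depend on the probe set chosen for a gene as well as on signal over background, on 1 array.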

Other observations

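The type of probe set went with the share that passed. Probe sets ending in _at, designed for a single transcript, exceeded the upper limit in 48 of 73 cases among the members (65.8%) and in 35.7% over the array. Those ending in _a_at, which cover several transcripts of a gene, did so in 22 of 25 (88.0%) and 61.2%. Those ending in _s_at or _x_at, which can share signal with other sequences, did so in 12 of 13 (92.3%) and 65.2%, and in 12 of 15 (80.0%) and 50.7%. No member was called above the line by probe sets ending in _x_at alone, since the 46 calls were unchanged in number and by gene without them.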
